A study of Mus musculus with 8 samples.

Results

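RNA levels of 10 genes that encode kinases of the splicing machinery and scaffold proteins of nuclear speckles were examined after knockdown (KD) of *Eftud2*. The genes were *Clk1*, *Clk2*, *Clk3* and *Clk4*, *Srpk1* and *Srpk2*, *Dyrk1a*, *Son*, *Srrm1* and *Srrm2*. They were chosen by name and not by their values, though with earlier results of these data known. They were found by matching the gene identifiers of the count table, without their version, to mouse GENCODE symbols. All 10 were among the 55385 genes of the table, and all 10 passed the filter on low counts among 17445 genes in all. Members of such a list were not replicates of a condition, and conditions were compared over libraries.

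The cells were R1 mouse embryonic stem cells (mESCs) with the genotype WT, and no group carried an engineered allele. Cells were infected on each of 2 consecutive days with virus carrying a small hairpin RNA and selected with puromycin for 3 days, the controls included. They were grown in N2B27 medium with 2 inhibitors and LIF. The nt-shRNA group (2 libraries) carried a non-targeting hairpin, the shRNA1 group (3 libraries) a hairpin against the 3′ UTR of *Eftud2*, and the shRNA2 group (3 libraries) a hairpin against its coding sequence. Each KD group thus rested on 1 hairpin in 1 cell line. The libraries of a group were labelled as biological replicates, and the sources used here do not say whether these were separate infections. Poly(A) RNA was sequenced in pairs, and the table gave fragments per gene.

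Libraries held 19569525 to 29871048 counted fragments, at which a count of 3 corresponded to 0.100 to 0.153 CPM, the fragments of a gene scaled to the depth of its library. Levels below are CPM with TMM factors, a normalization that sets most genes to no change. The 8 mESC markers (*Pou5f1*, *Sox2*, *Nanog*, *Esrrb*, *Zfp42*, *Klf4*, *Tfcp2l1*, *Dppa5a*) were each at 177 CPM or more in every library, with a summed level of 6583 to 6778 CPM in nt-shRNA, 6590 to 6842 in shRNA1 and 6753 to 6974 in shRNA2. Single markers moved within that sum, 3 higher and 2 lower with shRNA1 and 5 higher and 2 lower with shRNA2, from *Klf4* (1.32 on the log2 scale, adjusted p = 1.5e-10) to *Dppa5a* (-0.96, adjusted p = 3.9e-08) with shRNA2. The 8 fibroblast markers together gave 7.87 to 8.28, 9.74 to 11.2 and 8.56 to 9.96 CPM in the same order, and 4 of them were at 0 in at least 1 library. Together, 10 germ layer markers gave 59.3 to 59.9, 61.7 to 66.0 and 66.4 to 85.4 CPM. With shRNA2, *Tubb3* rose (from a mean of 10.2 to 30.5 CPM, 1.58, adjusted p = 1.2e-07) and *Gata6* fell (-0.75, adjusted p = 8.2e-04). With shRNA1, *Tubb3* also rose (0.62, adjusted p = 0.0071) and *T* fell (-0.81, adjusted p = 0.0483). The fibroblast marker *Col1a2*, at a control mean of 0.429 CPM, rose with both hairpins (1.27, adjusted p = 0.0103, and 1.66, adjusted p = 4.3e-04). The part of all these marker differences in the results was not tested. In bulk RNA, fewer cells of a type and less RNA per cell cannot be told apart.

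As background, SR proteins are splicing factors with a tail of repeated arginine and serine residues, and the phosphorylation of that tail sets where they reside and whether they bind the splicing machinery. SRPK kinases phosphorylate the tail mainly in the cytoplasm, which licenses import into the nucleus. CLK (CDC2-like) kinases, also called LAMMER kinases after a motif of their kinase domain, and DYRK kinases extend the phosphorylation in the nucleus and release SR proteins from speckles. Nuclear speckles are condensates that store splicing factors. SON and SRRM2 form their core, and SRRM1 is a splicing coactivator of the same compartment. The genes of the CLK family are well known for transcripts that keep introns in the nucleus until a later splicing step.

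The 4 CLK genes are related closely enough that shared reads had to be considered. The stretch of coding sequence at the LAMMER signature is printed for each gene because it encodes the motif that gives the family its other name and shows the genes' differences side by side. Capitals mark bases that differ from *Clk1*, and each stretch lies in 1 coding exon (GENCODE M21, GRCm38).
Clk1 (chr1:58412982-58413011, minus strand): gaacatttagcaatgatggaaaggattctt
Clk2 (chr3:89175407-89175436, plus strand): gaGcatCtagcCatgatggaaaggatCctG
Clk3 (chr9:57752150-57752179, minus strand): gaacaCttGgTTatgatggaGaAgattctA
Clk4 (chr11:51280373-51280402, plus strand): gaGcaCCtGgcaatgatggaGCggatCTtA

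Over these 30 bases *Clk2* differed from *Clk1* at 5 positions, *Clk3* at 7 and *Clk4* at 9. Over the whole coding sequence, identity was highest between *Clk1* and *Clk4* (74.6%) and lowest between *Clk1* and *Clk2* (63.1%), and the longest identical run of any pair was 34 bases, in *Clk1* and *Clk4*. No stretch of 100 bases, the length of a read, was shared between any 2 of the 10 genes. Counts of the CLK genes could therefore not have been exchanged by reads that match 2 of them over their full length.

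*Eftud2* (chr11:102838473-102880985, minus strand), the targeted gene, encodes a GTPase of the U5 small nuclear ribonucleoprotein. Controls held 262 and 256 CPM of it, shRNA1 libraries 232, 229 and 225 CPM, and shRNA2 libraries 198, 202 and 235 CPM. Both KD groups lay below the controls in every library, and replicate 3 of shRNA2 lay above every shRNA1 library while its other libraries lay below them. On the log2 scale the change was -0.18 with shRNA1 (fold 0.883, SE 0.0678, adjusted p = 0.0514) and -0.29 with shRNA2 (fold 0.817, SE 0.0678, adjusted p = 0.00122). With library size alone the log2 values were -0.065 (adjusted p = 0.498) and -0.20 (adjusted p = 0.0175). The study reports a larger loss of *Eftud2* RNA by qPCR with both hairpins, and less EFTUD2 protein by western blot. Throughout, adjusted p is the Benjamini-Hochberg value of edgeR's quasi-likelihood test over the 17445 genes, called at a threshold of 0.05. The KD groups did not separate by the test (shRNA2 minus shRNA1 -0.11, adjusted p = 0.164), but without replicate 3 of shRNA2 the difference was -0.19 (adjusted p = 0.0127).

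The 10 genes changed in both directions. With shRNA1, 2 were higher (*Son*, *Srrm2*) and 3 lower (*Clk1*, *Clk3*, *Clk4*), or 5 of 10, where 30.9% of all tested genes were called (13.8% higher, 17.1% lower). With shRNA2, 3 were higher (*Son*, *Srrm2*, *Dyrk1a*) and 4 lower (*Clk1*, *Clk3*, *Clk4*, *Srpk2*), or 7 of 10, where 55.9% of all tested genes were called (27.2% higher, 28.7% lower). *Clk2*, *Srpk1* and *Srrm1* passed the test in neither comparison. The median log2 fold change of the 10 genes was -0.04 with shRNA1 and -0.08 with shRNA2, beside -0.01 and 0.00 over all genes. Their median absolute change was 0.17 and 0.33, beside 0.22 and 0.37 over all genes, so the typical size of change was not above that of all genes. All genes included genes of much lower level, whose changes are less precise, and level was not matched. Both comparisons used the same 2 control libraries.

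**Figure D1:**
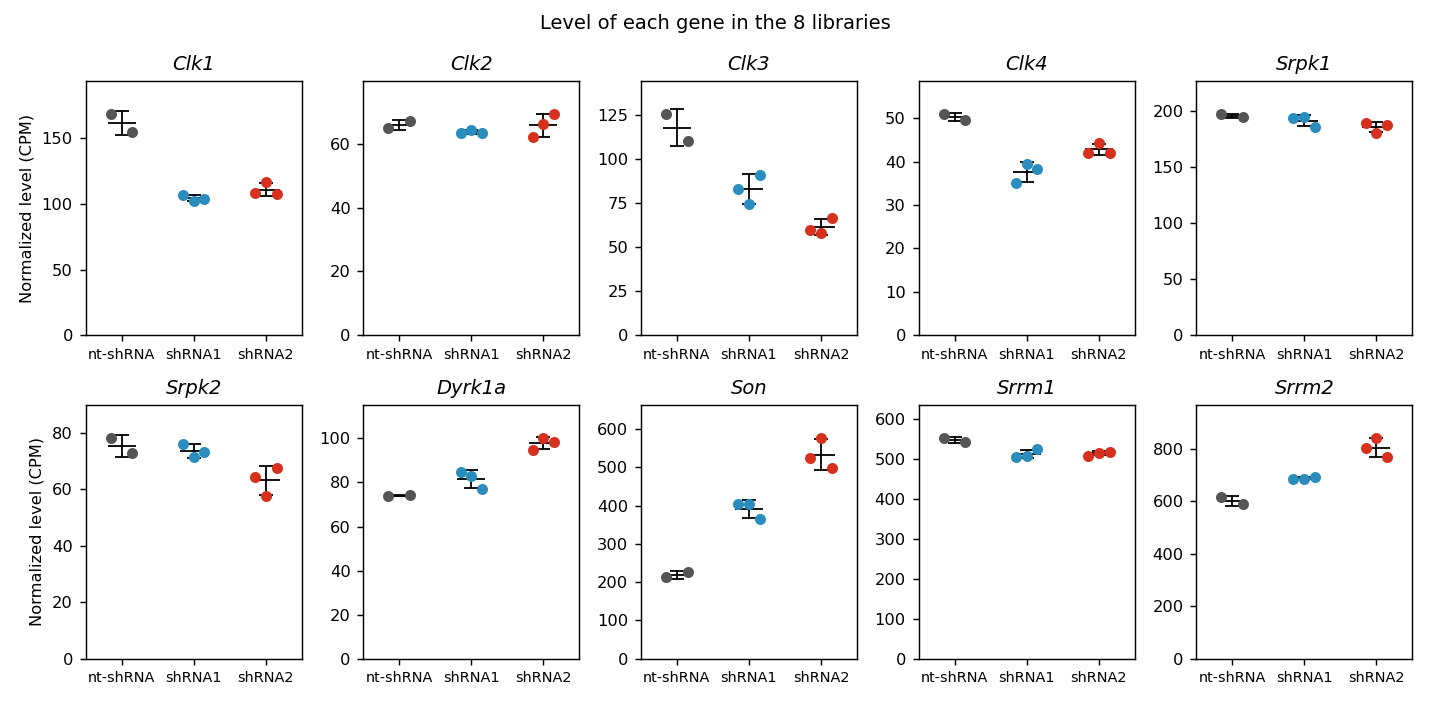
TMM-scaled level in CPM of each of the 10 genes (1 panel per gene, vertical axes from 0 and different between panels) in each library (points), with a line at the group mean and error bars of 1 SD for nt-shRNA (n = 2), shRNA1 (n = 3) and shRNA2 (n = 3). Mean levels of *Son* were 219, 391 and 533 CPM and of *Clk3* 118, 83.1 and 61.3 CPM in that order of groups, and the groups overlap for *Clk2*.

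*Clk3* (chr9:57750624-57765860, minus strand) showed the largest decrease of the 10 genes with shRNA2. Its level was 126 and 110.5 CPM in nt-shRNA, 83.4, 74.7 and 91.4 CPM in shRNA1, and 59.6, 57.8 and 66.4 CPM in shRNA2. The 3 groups did not overlap, and every shRNA2 library was below every shRNA1 library. Fitted log2 fold changes were -0.50 with shRNA1 (SE 0.082, adjusted p = 1.3e-04) and -0.95 with shRNA2 (95% confidence interval -1.12 to -0.77, adjusted p = 2.0e-08), a fold of 0.519. Of the exon bases of *Clk3*, 15.2% are shared with *Edc3*, a decapping factor gene on the opposite strand, and fragments there were left out of both genes. *Edc3* had log2 fold changes of -0.04 and 0.00 (adjusted p = 0.703 and 0.959).

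*Clk1* (chr1:58410189-58424066, minus strand), the founding member of the family, fell to a similar level with both hairpins. The nt-shRNA libraries held 168 and 155 CPM, the shRNA1 libraries 107, 102 and 104 CPM, and the shRNA2 libraries 108, 117 and 107 CPM. Every KD library lay below both controls, while the KD groups adjoined each other at 107 CPM. The fitted change was -0.63 with shRNA1 (SE 0.062, adjusted p = 5.8e-07) and -0.55 with shRNA2 (SE 0.062, adjusted p = 5.3e-07), both on the log2 scale. Between the hairpins the difference was 0.09 (95% confidence interval -0.03 to 0.21, adjusted p = 0.24).

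*Clk4* (chr11:51261730-51281766, plus strand), the closest relative of *Clk1* in coding sequence, was lower with both hairpins but by less with shRNA2. It was measured at 51.0 and 49.6 CPM in nt-shRNA, 35.1, 39.4 and 38.4 CPM in shRNA1, and 42.0, 44.4 and 42.1 CPM in shRNA2. The groups did not overlap, with shRNA2 between the controls and shRNA1. In log2 terms it changed by -0.42 with shRNA1 (SE 0.0731, adjusted p = 2.7e-04) and -0.23 with shRNA2 (SE 0.073, adjusted p = 0.0113). The shRNA2 call was lost without nt-shRNA replicate 1 (-0.21, adjusted p = 0.0843) and with scaling by library size alone (-0.14, adjusted p = 0.107), and the difference between hairpins (0.19, adjusted p = 0.0367) was lost in 9 of 15 alternative settings (adjusted p = 0.0541 to 0.149).

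*Clk2* (chr3:89164795-89176921, plus strand), by contrast, stayed near its control level. Its values were 65.0 and 67.2 CPM in nt-shRNA, 63.6, 64.5 and 63.5 CPM in shRNA1, and 62.1, 66.2 and 69.4 CPM in shRNA2, and the shRNA2 libraries spanned the other groups. Its log2 fold change was -0.05 with shRNA1 (95% confidence interval -0.19 to 0.09, adjusted p = 0.603) and 0.00 with shRNA2 (-0.14 to 0.14, adjusted p = 0.961). With shRNA1 this interval lies wholly above those of *Clk1*, *Clk3* and *Clk4*, and with shRNA2 above those of *Clk1* and *Clk3*. With shRNA2 the interval of *Clk4* (-0.38 to -0.08) overlaps that of *Clk2*. No test of the difference between genes was made. The sign of *Clk2* turned with scaling by library size alone (0.06 and 0.08).

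With *Clk2* near its control level and its 3 relatives lower, the makeup of the family's RNA differed between groups. Levels were divided by the exon length of each gene, summed over the 4 genes, and given as shares. The sum was 55.0 ± 2.31 CPM per kilobase in nt-shRNA (SD, n = 2), 41.2 ± 0.943 in shRNA1 (n = 3) and 40.7 ± 1.18 in shRNA2 (n = 3), so that the KD groups overlapped with each other and not with the controls. *Clk2* made up 22.7% ± 1.49 of the sum in nt-shRNA, 29.3% ± 0.875 in shRNA1 and 30.5% ± 0.949 in shRNA2. *Clk1* held 36.1% ± 0.595, 31.1% ± 0.832 and 33.5% ± 1.43 in the same order. *Clk3* held 25.4% ± 1.25, 23.9% ± 1.86 and 17.8% ± 1.21, and the gap between hairpins was larger than the spread within either. *Clk4* held 15.8% ± 0.358, 15.8% ± 1.06 and 18.2% ± 0.551. The shares are descriptions, and no test of them was made.

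**Figure D2:**
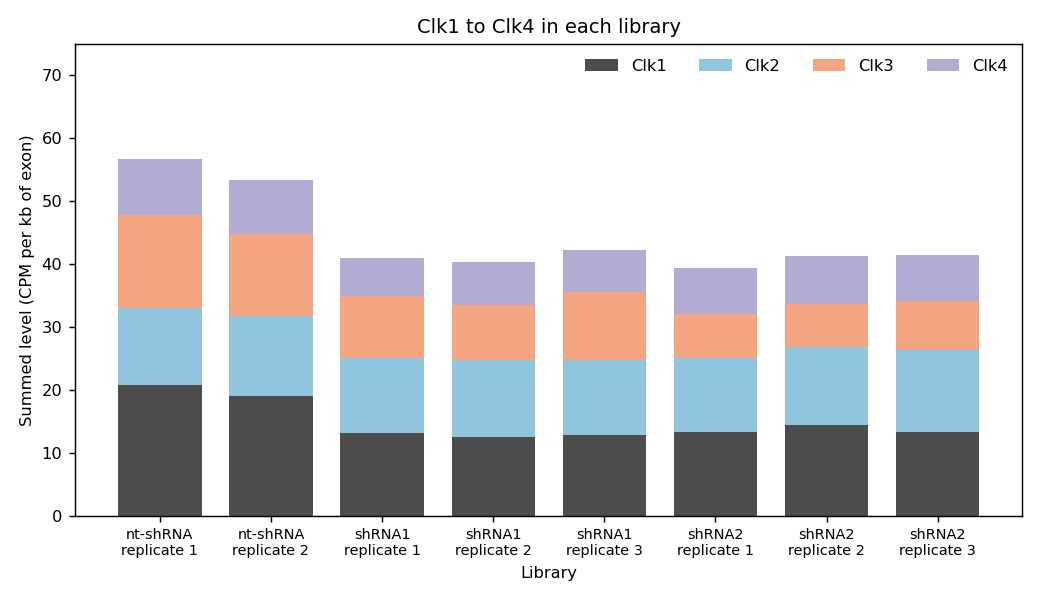
Summed length-scaled level of the CLK genes in CPM per kilobase of exon (vertical axis, from 0) in each of the 8 libraries (1 bar each), with the segments giving the part of *Clk1*, *Clk2*, *Clk3* and *Clk4*. Group means of the sum are 55.0 in nt-shRNA, 41.2 in shRNA1 and 40.7 in shRNA2, and the *Clk2* segments differ little in height while the others are shorter in the KD libraries.

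Gene-level counts join all transcripts of a gene. GENCODE M21 was used, whose exon lengths for these genes equal those of the M24 annotation behind the counts. There *Clk1* has 13 transcripts, 7 of them annotated as retained intron. Of its exon bases, 63.8% occur in a retained-intron transcript and in no protein-coding one. For *Clk2*, *Clk3* and *Clk4* that share is 56.8%, 58.4% and 59.8%. It is 50.1% for *Srpk1*, 43.9% for *Srrm1*, 40.1% for *Srpk2*, 23.4% for *Dyrk1a*, 22.1% for *Srrm2* and 20% for *Son*. Of these genes, *Clk1*, *Clk3* and *Clk4* fell with both hairpins and *Srpk2* with shRNA2, and *Clk2*, *Srpk1* and *Srrm1* were not called. *Son* and *Srrm2* rose with both hairpins and *Dyrk1a* with shRNA2. Fragments on retained introns were counted together with mRNA, and their part in each change was not tested.

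*Srpk1* (chr17:28587648-28622709, minus strand), the more abundant of the SRPK kinases per length, showed no change past the test. It was at 197 and 195 CPM in nt-shRNA, 194, 195 and 186 CPM in shRNA1, and 189, 181 and 188 CPM in shRNA2, the shRNA2 libraries lying just under the controls. Log2 fold changes were -0.03 (95% confidence interval -0.15 to 0.09, adjusted p = 0.706) with shRNA1 and -0.08 (-0.20 to 0.04, adjusted p = 0.273) with shRNA2. With library size alone the values were 0.08 and 0.01.

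*Srpk2* (chr5:23503264-23684617, minus strand) was lower with shRNA2. The nt-shRNA libraries held 78.2 and 72.7 CPM, shRNA1 76.1, 71.5 and 73.0 CPM, and shRNA2 64.3, 57.5 and 67.6 CPM. The shRNA2 libraries lay below all others, and the shRNA1 libraries overlapped the controls. Its log2 fold change was -0.04 with shRNA1 (adjusted p = 0.745), with the opposite sign under library size alone (0.08), and -0.26 with shRNA2 (SE 0.0729, adjusted p = 0.00575). The shRNA2 call was lost without nt-shRNA replicate 1 (adjusted p = 0.0871) and with library size alone (adjusted p = 0.0612). *Kmt2e*, a chromatin gene on the opposite strand that shares 6.99% of the exon bases of *Srpk2*, rose with shRNA2 (0.35, adjusted p = 9.8e-04), and its part in the *Srpk2* value was not tested. Per length, the ratio of *Srpk1* to *Srpk2* was 2.92 in nt-shRNA, 2.93 in shRNA1 and 3.32 in shRNA2.

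*Dyrk1a* (chr16:94570010-94695517, plus strand), a dosage-sensitive kinase that phosphorylates SR proteins among many other substrates, rose with shRNA2. Its level was 73.8 and 74.2 CPM in nt-shRNA, 84.9, 82.7 and 77.0 CPM in shRNA1, and 94.7, 100.2 and 98.4 CPM in shRNA2. The 3 groups did not overlap. On the log2 scale it differed by 0.14 with shRNA1 (SE 0.0645, adjusted p = 0.112) and 0.40 with shRNA2 (SE 0.0646, adjusted p = 3.3e-05). With shRNA1 it passed the test with library size alone (0.25, adjusted p = 0.00619), when only genes with at least 10 counts in every library were kept (0.17, adjusted p = 0.0493), and without replicate 3 of shRNA1 (0.18, adjusted p = 0.0330).

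*Son* (chr16:91647506-91679221, plus strand), whose protein is a core scaffold of speckles and a splicing cofactor, showed the largest change of the 10 genes. The nt-shRNA libraries held 212 and 226 CPM, the shRNA1 libraries 404, 404 and 364 CPM, and the shRNA2 libraries 523, 576 and 499 CPM. The 3 groups did not overlap. Its log2 fold change was 0.84 with shRNA1 (SE 0.0718, adjusted p = 1.5e-07), a fold of 1.78, and 1.28 with shRNA2 (95% confidence interval 1.13 to 1.43, adjusted p = 1.1e-10), a fold of 2.43. Of its exon bases 0.691% are shared with *Donson*, a replication gene on the opposite strand, which had log2 fold changes of 0.17 and 0.06 (adjusted p = 0.108 and 0.505). *Son* also kept a log2 fold change of 1.33 with shRNA2 without replicate 3 of that group, the library with the most *Eftud2* RNA.

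*Srrm2* (chr17:23790532-23824741, plus strand), the other core scaffold, rose by less. It was at 616 and 588 CPM in nt-shRNA, 687, 685 and 694 CPM in shRNA1, and 803, 842 and 769 CPM in shRNA2, again without overlap between groups. The log2 fold change was 0.19 with shRNA1 (SE 0.0604, adjusted p = 0.0197) and 0.42 with shRNA2 (SE 0.0608, adjusted p = 1.0e-05). The shRNA1 call was lost without nt-shRNA replicate 1 (0.23, adjusted p = 0.0582) or replicate 2 (0.16, adjusted p = 0.172).

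*Srrm1* (chr4:135320484-135353321, minus strand), a coactivator that binds exon junction proteins, did not pass the test. Its level was 554 and 543 CPM in nt-shRNA, 507, 507 and 526 CPM in shRNA1, and 509.6, 517 and 519 CPM in shRNA2, and no KD library reached either control. Log2 fold changes were -0.10 with shRNA1 (95% confidence interval -0.21 to 0.02, adjusted p = 0.207) and -0.09 with shRNA2 (-0.21 to 0.03, adjusted p = 0.177), and with library size alone the shRNA1 value was 0.02. Per length, *Son* stood to *Srrm1* at 0.196 ± 0.0111 in nt-shRNA (SD, n = 2), 0.373 ± 0.0293 in shRNA1 (n = 3) and 0.507 ± 0.0379 in shRNA2 (n = 3). For *Srrm2* the same ratio was 0.623 ± 0.0117, 0.763 ± 0.0107 and 0.888 ± 0.0422. The ratios did not overlap between groups.

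**Figure D3:**
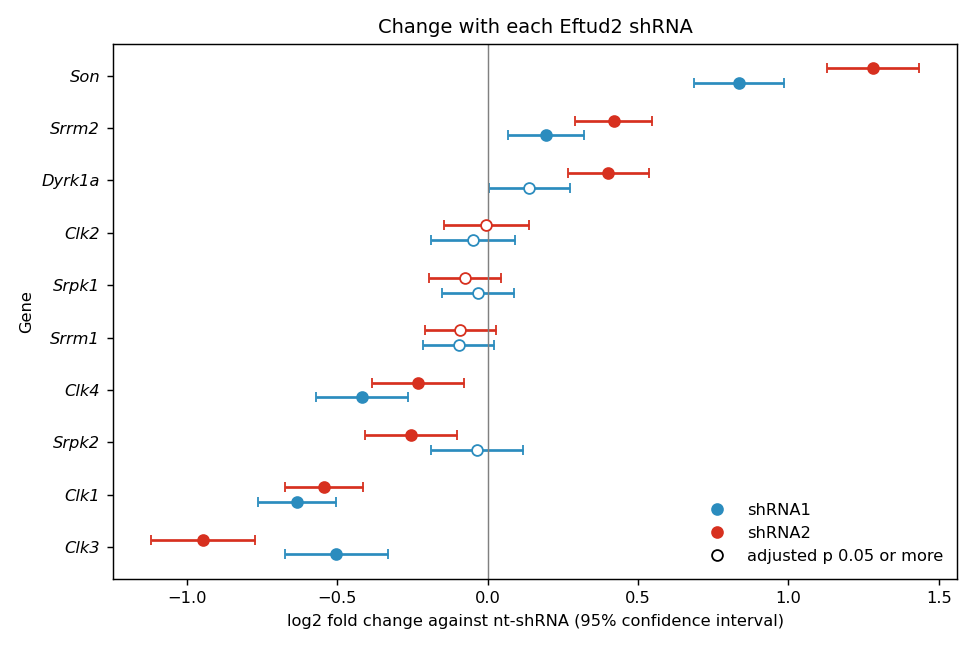
Log2 fold changes against nt-shRNA (horizontal axis, points) with 95% confidence intervals (bars) from edgeR for the 10 genes with shRNA1 (blue) and shRNA2 (red); open points have an adjusted p of 0.05 or more, and the vertical line marks 0. *Son* lies at 0.84 and 1.28 and *Clk3* at -0.50 and -0.95, while both intervals of *Clk2*, *Srpk1* and *Srrm1* include 0.

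A direct comparison asked where the hairpins differed. In shRNA2 vs shRNA1, 4 of the 10 genes were higher (*Son*, *Dyrk1a*, *Srrm2*, *Clk4*) and 2 lower (*Clk3*, *Srpk2*), where 35.6% of all tested genes were called (16.9% higher, 18.7% lower). The largest differences were those of *Son* (0.45, SE 0.0624, adjusted p = 3.2e-05) and *Clk3* (-0.44, SE 0.0766, adjusted p = 2.4e-04). *Dyrk1a* differed by 0.26 (adjusted p = 0.00166), *Srrm2* by 0.22 (adjusted p = 0.00329) and *Srpk2* by -0.22 (adjusted p = 0.0141). The *Srpk2* call was lost without replicate 1 of shRNA1 (adjusted p = 0.0563) or replicate 2 of shRNA2 (adjusted p = 0.0785). *Clk1* is the member that fell with both hairpins without a called difference between them, and *Clk4* differed in the direction of the controls.

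Per length, the order of the 10 genes changed between groups. The length counts every annotated exon, also bases of retained-intron transcripts found in no protein-coding one (20% for *Son*, 63.8% for *Clk1*). Ranks and ratios between genes depend on that choice of length. In nt-shRNA, *Srrm1* (75.2 ± 1.02 CPM per kilobase, SD, n = 2) and *Srrm2* (46.9 ± 1.51) led, followed by *Clk1* (19.9 ± 1.16), *Srpk1* (15.8 ± 0.161), *Son* (14.7 ± 0.638), *Clk3* (13.97 ± 1.27), *Clk2* (12.5 ± 0.294), *Dyrk1a* (8.97 ± 0.0341), *Clk4* (8.68 ± 0.167) and *Srpk2* (5.43 ± 0.279). Among neighbours in this order, the libraries overlapped for *Son* and *Clk3* and for no other pair. In shRNA2, *Son* came next at 35.7 CPM per kilobase behind *Srrm1* (70.6) and *Srrm2* (62.6), *Clk1* was at 13.6 below *Srpk1* (15.03), and *Clk3* was at 7.25, where it overlapped *Clk4* (7.39). *Son* already had that place in shRNA1, at 26.2 CPM per kilobase, while *Clk3* (9.84) overlapped *Dyrk1a* (9.89). *Srrm1* and *Srpk2* were highest and lowest in all 3 groups.

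Patterns over the 8 libraries were compared by the root mean square difference of log2 CPM, centred on each gene's mean. Among the 10 genes the most alike were *Srpk1* and *Srrm1* (0.048), *Clk2* and *Srrm1* (0.054) and *Dyrk1a* and *Srrm2* (0.060), whereas *Clk1* and *Clk4* differed by 0.138. The measure is small for any genes that change little, as *Srpk1*, *Srrm1* and *Clk2* did. For *Son*, the member with the smallest adjusted p, the closest of all other tested genes was *Wnt3a*, a secreted signalling ligand (0.053, mean level 1.46, 2.72 and 3.79 CPM in nt-shRNA, shRNA1 and shRNA2). *Tex19.1*, a gene of germ and pluripotent cells (0.055), was at 74.5, 141 and 194 CPM, and *1700052K11Rik* (0.081) at 2.21, 4.001 and 5.60 CPM. All libraries of a group share their hairpin, so these are descriptions of 3 groups more than of 8 independent points.

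Other kinases that act on splicing factors or on the polymerase moved mostly upward with shRNA2. Of 13 listed, 12 were tested and *Srpk3* was not. With shRNA1, 2 rose (*Cdk12*, 0.40, adjusted p = 0.0011, and *Hipk3*, 0.25, adjusted p = 0.045, both named after their values were seen), of which DESeq2 called 1, where 13.8% of all tested genes rose and 17.1% fell. By either tool 0 fell, with 1 lower at an unadjusted p under 0.05 by each, and the median was 0.19. With shRNA2, 9 rose and 1 fell, with a median of 0.39, where 27.2% of all tested genes rose and 28.7% fell. *Dyrk3*, a kinase known to dissolve condensates including speckles, was at 36.8 and 36.1 CPM in nt-shRNA, 44.3, 39.3 and 42.1 CPM in shRNA1, and 71.9, 80.1 and 57.5 CPM in shRNA2. Its log2 fold change was 0.94 with shRNA2 (SE 0.103, adjusted p = 3.4e-07) and 0.20 with shRNA1 (adjusted p = 0.145), and the groups did not overlap. The shRNA1 value passed the test in 4 of 15 alternatives, with library size alone (0.32, adjusted p = 0.0222), only the groups compared (0.23, adjusted p = 0.0288), the replicate block (0.28, adjusted p = 0.0358) and without replicate 3 of shRNA2 (0.21, adjusted p = 0.0453). *Cdk9*, the kinase of the elongation factor P-TEFb, fell with shRNA2 (-0.19, adjusted p = 0.0184) and had a value of -0.15 with shRNA1 (adjusted p = 0.0932). The shRNA2 call was lost with library size alone (-0.10, adjusted p = 0.199), without replicate 1 of shRNA2 (adjusted p = 0.105) and without nt-shRNA replicate 1 (adjusted p = 0.130), while the shRNA1 value passed with the replicate block (adjusted p = 0.0219) and without replicate 3 of shRNA1 (adjusted p = 0.0406).

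Of the 7 phosphatase genes that counter these kinases, 0 passed the test with shRNA1 by edgeR or by DESeq2, with 1 higher at an unadjusted p under 0.05 by each (median 0.10), and 3 rose with shRNA2 (median 0.15), where 27.2% of all tested genes rose. They were *Ppm1g*, a phosphatase found with spliceosomes (0.32, SE 0.0636, adjusted p = 2.6e-04), and, named after their values were seen, *Ppp1r8* (0.25, adjusted p = 0.0029), a nuclear regulator of PP1, and *Ppp2ca* (0.20, adjusted p = 0.01), a catalytic subunit of PP2A. *Ppm1g* also passed with shRNA1 with library size alone (0.26, adjusted p = 0.0025), when at least 10 counts in every library were required (0.18, adjusted p = 0.0374) and with only the groups compared (0.17, adjusted p = 0.0470). The other catalytic subunit gene of PP2A, *Ppp2cb*, had log2 fold changes of 0.00 (adjusted p = 0.981) and -0.03 (adjusted p = 0.637). With library size alone its shRNA2 value was 0.06.

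Among 13 genes of SR and TRA2 proteins, the substrates of the CLK and SRPK kinases, 6 rose and 1 fell with shRNA1 (median 0.13), and 9 rose and 2 fell with shRNA2 (median 0.41). Over all tested genes, 13.8% rose and 17.1% fell with shRNA1, and 27.2% and 28.7% with shRNA2. *Srsf3*, an SR protein of the smallest kind, was at 266 and 302 CPM in nt-shRNA, 432, 392 and 360.2 CPM in shRNA1, and 472, 494 and 465 CPM in shRNA2. Its log2 fold change was 0.48 with shRNA1 (SE 0.0752, adjusted p = 1.0e-04) and 0.75 with shRNA2 (SE 0.0758, adjusted p = 1.2e-07). *Tra2a*, which encodes an SR-like activator of exon inclusion, went down from 429 and 395 CPM to 316, 301 and 289.6 CPM with shRNA1 and 291, 269.9 and 299 CPM with shRNA2 (log2 fold change -0.45, adjusted p = 3.8e-05, and -0.52, adjusted p = 1.35e-06). It was the member of the list that fell with both hairpins, and *Srsf12*, named after its values were seen, fell with shRNA2 (-0.40, adjusted p = 0.032).

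The list of other speckle components held 23 genes, of which 3 rose and 5 fell with shRNA1 (median 0.00), close to the 13.8% and 17.1% of all tested genes. With shRNA2, 10 rose and 5 fell (median 0.19), beside 27.2% and 28.7% of all tested genes. *Ddx39b*, an RNA helicase of splicing and export, was at 233 and 238 CPM in nt-shRNA, 275, 288 and 289.8 CPM in shRNA1, and 355, 392 and 359 CPM in shRNA2. It rose by 0.27 with shRNA1 (adjusted p = 0.00271) and 0.64 with shRNA2 (adjusted p = 7.0e-08) on the log2 scale. *Malat1*, the long noncoding RNA of speckles, fell by 0.26 (adjusted p = 0.0077) and 0.48 (adjusted p = 8.9e-06) from a control mean of 1038 CPM. Its shRNA1 call was lost with library size alone (-0.14, adjusted p = 0.105) and without nt-shRNA replicate 1 (-0.18, adjusted p = 0.161). The other genes that fell, named after their values were seen, were *Pnisr* (log2 fold change -0.22 and -0.15), *Rnps1* (-0.18 and -0.32) and *Rsrp1* (-0.37 and -0.31) with both hairpins, *Rbm39* with shRNA1 (-0.22) and *Rsrc1* with shRNA2 (-0.46). With shRNA1, the other genes that rose were *Bclaf1* (0.34, adjusted p = 0.0011) and *Ppig* (0.28, adjusted p = 0.0026). Scaling by library size alone shifted the median of all genes by 0.11 with shRNA1 and 0.09 with shRNA2, which bears on every small value above. With that scaling, 28 genes of the 4 lists rose and 2 fell with shRNA1, in place of 11 and 6.

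**Figure D4:**
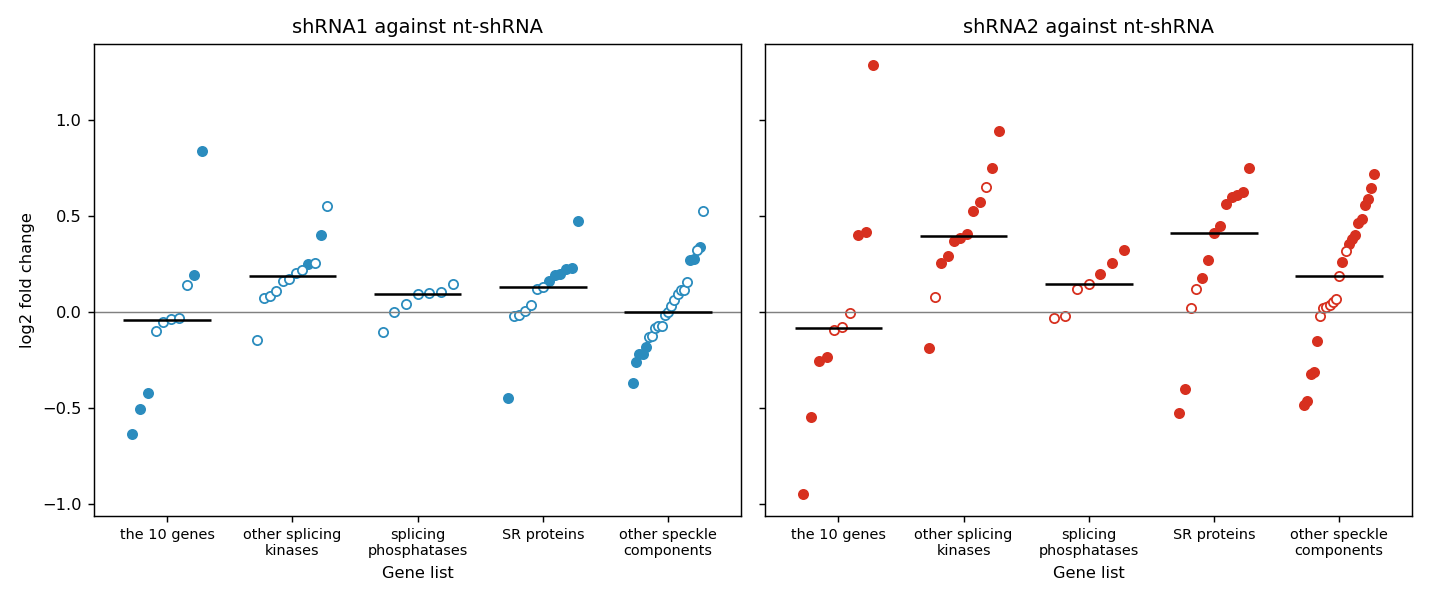
Log2 fold changes against nt-shRNA (vertical axis) of the 10 genes and of the 4 related lists, with shRNA1 on the left and shRNA2 on the right; each point is 1 tested gene, ordered by value within its list, filled where the adjusted p is under 0.05 and open otherwise, and black lines are list medians. With shRNA2 the medians are -0.08 for the 10 genes, 0.39 for other splicing kinases, 0.15 for phosphatases, 0.41 for SR proteins and 0.19 for other speckle components.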

How the data were processed

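The 10 genes and all lists were chosen with earlier results of these data known. RNA was measured in 8 libraries of R1 mESCs (2 nt-shRNA, 3 shRNA1, 3 shRNA2). The authors aligned paired reads with STAR to mm10 and deposited raw counts of fragments per gene, made with featureCounts 1.6.2 on GENCODE M24 exons. Counting was unstranded, and fragments matching several places or genes were not counted, which lowers genes with overlapping or repeated exons. Symbols came from GENCODE M21 (55144 of 55385 genes matched).

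From these counts, edgeR 4.0.16 (R 4.3.3) was run with TMM factors, filterByExpr (minimum count 10) and glmQLFit and glmQLFTest on all 8 libraries, with Benjamini-Hochberg adjustment over 17445 genes and a threshold of 0.05. CPM used TMM-scaled totals, and log2 CPM a prior count of 2. No interval is given for single counts, and depth (19569525 to 29871048 counts per library) covers counting error only. On simulated shRNA2 vs nt-shRNA counts of 17247 genes, 196 of 200 changed genes were recovered, and 5.31% of calls were false. Recovery of small log2 fold changes, such as many of those above, was not tested separately. Genes named were the 10 and *Eftud2*, the gene of smallest adjusted p in each direction of each list in shRNA2 vs nt-shRNA, and the 3 genes most like *Son*. Same-numbered libraries did not deviate together (correlations from -0.026 to 0.074), so replicate numbers were not used as a block. Alternatives were DESeq2 1.42.0, its size factors, library size alone, other filters, only the groups compared, the block, and each library left out. No 2 libraries of a group agreed within sampling noise.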

Additional observations from a re-analysis of the deposited data

How the results depend on the processing

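*Son*, *Clk1* and *Clk3* kept their direction and their call against nt-shRNA in all 15 alternatives (*Son* 0.79 to 0.95 with shRNA1 and 1.23 to 1.37 with shRNA2, *Clk3* -0.59 to -0.39 and -1.04 to -0.85, *Clk1* -0.69 to -0.52 and -0.61 to -0.46). Over the 450 values of the 10 genes under alternatives, 414 kept direction and side of the threshold, 17 lost and 3 gained a call, and 16 turned sign, all 16 in *Clk2*, *Srpk1*, *Srpk2* and *Srrm1* and with no call. The cause was not tested.

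With library size alone, the sign turned for *Clk2* (0.063 with shRNA1, 0.085 with shRNA2), *Srpk1* (0.082, 0.014), *Srpk2* (0.079) and *Srrm1* (0.018) with shRNA1, *Srrm1* in shRNA2 vs shRNA1 (-0.0195), and *Ppp2cb* with shRNA2 (0.056). All genes then split into 4101 higher and 1713 lower with shRNA1, against 2407 and 2981, and the 4 lists gave 30 calls in place of 17. Requiring 10 counts in every library turned *Clk2* with shRNA2 to 0.02 and *Srrm1* between hairpins to -0.000358. For *Srrm1* between hairpins the value was also -0.0118 with no filter and -0.00134 with only the groups compared. For *Ppp2cb* with shRNA1 it was -0.00242 by DESeq2 and -0.0034 with no filter.

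Leaving out 1 library also turned signs. Where this left 1 control, it was assumed to vary like the other groups. The range was -0.041 to 0.041 for *Clk2* with shRNA2 (highest without shRNA2 replicate 1, and 0.02 without nt-shRNA replicate 2), -0.088 to 0.018 for *Srpk2* with shRNA1 (highest without nt-shRNA replicate 1), -0.00434 to 0.022 for *Srrm1* between hairpins (below 0 without shRNA1 replicate 1 or 2) and -0.00159 to 0.00785 for *Ppp2cb* with shRNA1 (below 0 without shRNA1 replicate 2). With 1 KD library left out, the 10 genes gave 5 to 6 calls for shRNA1 and 7 for shRNA2. Between hairpins they gave 4 to 6. The lists then gave 10 to 21 calls with shRNA1, with 10 without shRNA1 replicate 2. In that setting all genes also gave fewer calls, 1619 higher and 2078 lower, against 2407 and 2981 in the main fit. Their lowest numbers were 4223 and 4446 for shRNA2 (without its replicate 1). Between hairpins these were 1988 and 2318 (without shRNA2 replicate 2).

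*Eftud2* with shRNA1 (-0.18, adjusted p = 0.0514) passed the test by DESeq2 (-0.18, adjusted p = 0.0487), with no filter (-0.18, adjusted p = 0.0300), with only the groups compared (-0.16, adjusted p = 0.0491), and over left-out libraries ranged from -0.20 to -0.16, passing without shRNA2 replicate 2 or 3. It was -0.065 with library size alone (adjusted p = 0.498) and -0.15 with at least 10 counts in every library (adjusted p = 0.101). Between hairpins that range was -0.19 to -0.068. The labels do not say whether replicate numbers pair the libraries, and the low correlations of same-numbered libraries do not exclude it. With the replicate block, *Eftud2* with shRNA1 was -0.21 (adjusted p = 0.0206), 5, 7 and 6 of the 10 genes were called as without it, the lists gave 21, 40 and 34 calls, and all genes gave 2694 higher and 3324 lower with shRNA1.

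Without length scaling the shares of the CLK sum in nt-shRNA, shRNA1 and shRNA2 were 40.8%, 36.1% and 39.5% for *Clk1*, 16.7%, 22.1% and 23.5% for *Clk2*, 29.8%, 28.7% and 21.8% for *Clk3*, and 12.7%, 13.0% and 15.3% for *Clk4*. Depth did not limit the 10 genes, whose lowest value was 35.1 CPM, while 2 control libraries limit the precision of every fold change.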
